A study of Homo sapiens with 42 samples.

Results

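NOMO1, a human acute myeloid leukemia line with a rearranged KMT2A gene (KMT2A-r), was sequenced after 6 and after 3 days with 2 drugs together, and the comparison described here is day 6 against day 3 of that combination. The drugs were VTP-50469, an inhibitor of menin, and selumetinib, an inhibitor of the kinase MEK, each at 100 nM. The groups are the combination at day 6 and the combination at day 3, with 3 libraries each, so 6 of the 42 libraries of the series carry the main comparison, and all 16570 genes that passed a filter on low counts, of 58870 in the count table, were tested. Further groups of 3 libraries set the day change in context: VTP-50469 alone (100 nM) at day 6 and day 3, the DMSO vehicle at day 6 and day 3, all in NOMO1, and the same combination at day 6 and day 3 in OCI-AML3, a leukemia line labelled NPM1c+. Selumetinib alone (100 nM) in NOMO1 was also part of the fits, but its levels are not compared here. No library in these groups is untreated, and the sample labels write the menin inhibitor as VTP-50649 where the series description has VTP-50469. The labels do not say for how many of the 6 or 3 days selumetinib was present in the combination, and in 1 field they give selumetinib as a 1-day treatment. Nothing in them tells whether replicates were grown separately, so p-values measure the spread between these libraries, which may be technical.

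Menin is a scaffold protein that holds KMT2A and its fusion proteins at their target genes, among them the HOXA cluster and MEIS1, which keep leukemic cells in a progenitor state. Menin inhibitors release the complex from these genes, and leukemic cells with KMT2A rearrangements are known to lose that program and to take on features of mature myeloid cells. MEK is the kinase directly above ERK, and ERK drives growth genes such as MYC together with its own feedback inhibitors of the DUSP, SPRY and SPRED families, so the feedback genes are widely used as a readout of the pathway.

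The libraries held 20516543 to 25224829 counts at day 6 and 22445741 to 25658129 counts at day 3, and 19316 to 20092 genes had a count at day 6 against 21540 to 21734 at day 3. The share of counts from the mitochondrial genome was 3.06% to 4.0% at day 6 and 5.6% to 6.73% at day 3. Levels are in CPM, that is counts scaled to a common library size, by the TMM method. The marker sums given here use library totals instead. Of 10 genes that mark the labelled myeloid identity, 10 were detected on both days, and 9 of them, all but CD68, averaged at least 5 CPM on each day. Their summed level, mostly MPO and LYZ, was 16040 to 16880 CPM at day 6 and 20680 to 20980 CPM at day 3. Of 12 erythroid markers 7 had no count on either day, including both alpha and both gamma globin genes, and the B cell markers MS4A1, PAX5 and IGHM had none. The summed level of 10 T and NK cell markers was 665 to 696 CPM at day 6 and 462 to 499 CPM at day 3, and that of 10 epithelial and stromal markers was 148 to 161 CPM at day 6 and 416 to 460 CPM at day 3. The T and NK cell sum is mostly CD4 and NKG7, which this line expresses on both days, and the part of these markers in any result was not tested. Among the groups used for context, library 1 of VTP-50469 day 3 stood apart from its replicates (chi-square per gene 74.5 and 79.8 against libraries 2 and 3, which differed from each other by 6.70), and the DMSO day 3 libraries carried 17.6% to 18% mitochondrial counts. In bulk RNA, fewer cells that express a gene and less of its RNA per cell cannot be told apart.

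A large part of the transcriptome differed between the days. Of the 16570 genes tested, 3482 (21%) were higher and 3176 (19.2%) lower at day 6 than at day 3 (edgeR quasi-likelihood test, Benjamini-Hochberg adjusted p under 0.05), which is 40.2% in all, and 7860 had an unadjusted p under 0.05. Of all genes tested, 958 (5.78%) were higher and 1002 (6.05%) lower by at least 2-fold. All 3 day 6 libraries lay above all 3 day 3 libraries for 28% of genes tested and below them for 27.7%. Counts of called list members given below are to be set against the shares of 21% higher and 19.2% lower. The largest rises included MMP12, C1QA, CD14 and GPNMB, which macrophages are known to express, and the deepest falls included PTK7, SKIDA1, ZNF521 and SOCS2. Protein-coding genes were higher in 25.4% and lower in 20.6% of 13163 tested, whereas long noncoding genes were higher in 4.24% and lower in 14% of 2121 and pseudogenes higher in 3.61% and lower in 12.8% of 1053. When libraries were scaled by their totals alone, 41.1% of the called genes were higher at day 6, against 52.3% with TMM scaling, and the median change over all genes was -0.12 in place of -0.03 (log2).

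**Figure D1:**
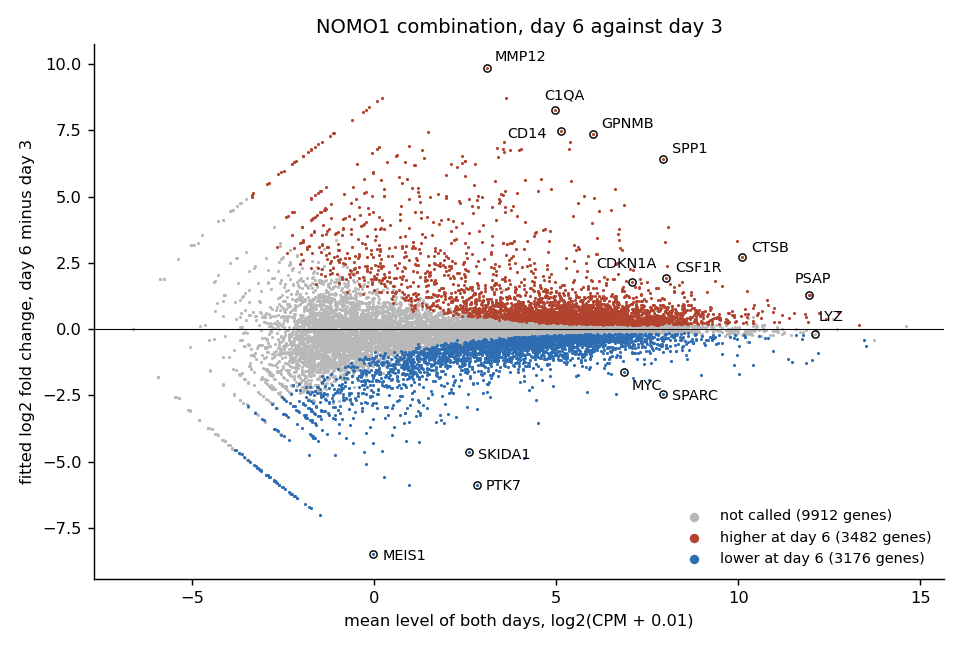
Fitted log2 fold change, day 6 minus day 3 (y axis), against the mean level of both days as log2(CPM + 0.01) (x axis) for the 16570 genes tested in NOMO1 with the combination. Red points are the 3482 genes higher and blue points the 3176 genes lower at day 6, grey points were not called, and circles mark genes named in the text; the fitted values of MMP12 and MEIS1 rest on 1 and 0 counts in 1 of the days.

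Among the 12 largest rises were MMP12, the macrophage elastase, CADM1, a cell adhesion molecule, and C1QA, a chain of the complement protein C1q. MMP12 (ENSG00000262406.2, chr11:102862736-102875034, hg38) had 16.4, 17.8 and 17.0 CPM at day 6, against 0.0428, 0 and 0 CPM at day 3, that is 1177 counts over the day 6 libraries and 1 over the day 3 libraries, a ratio of 1293 with an exact 95% counting interval of 232 to 51104. CADM1 had 20.2, 24.4 and 29.5 CPM at day 6, against 0, 0 and 0.155 CPM at day 3. For CADM1 the log2 fold change was 8.73 ± 0.41, SE (adjusted p = 1.85e-15). Each SE of a log2 value given here is its size divided by the square root of the test's F statistic. The day 3 counts of CADM1 were few and lay in 1 library, so its fitted size is less certain than this SE. The other large rises included CD14, C1QC, GPNMB, BMP7, CHST15, SLCO2B1, ITGB5 and A2M, with log2 fold changes between 6.79 and 7.48. On a stricter description, 25 genes were at or below 0.5 CPM in every day 3 library and at or above 5 CPM in every day 6 library, among them C1QA, CD163, MSR1, CD209, CLEC10A, MMP12, PLA2G7 and DUSP4. The reverse held for 1 gene, PTK7, a receptor-like pseudokinase of Wnt signaling, with 0.409, 0.122 and 0.150 CPM at day 6, against 13.3, 13.4 and 15 CPM at day 3. For PTK7 the log2 fold change was -5.87 ± 0.27 (adjusted p = 1.49e-15).

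The other deep falls were in KIF26B, SKIDA1, ZNF521, FGFR4, TMEM119, SOCS2, CAMKV, FNBP1L, BCAM, CYS1 and COL8A2, with log2 fold changes between -4.87 and -2.66. ZNF521, a zinc finger protein of immature hematopoietic cells, had 3.48, 3.14 and 4.01 CPM at day 6, against 39.0, 46.1 and 39.2 CPM at day 3. For ZNF521 the log2 fold change was -3.55 ± 0.12 (adjusted p = 4.74e-18). SOCS2, an inhibitor of cytokine receptor signaling, had 0.614, 0.408 and 0.802 CPM at day 6, against 6.07, 6.79 and 6.71 CPM at day 3. For SOCS2 the log2 fold change was -3.44 ± 0.29 (adjusted p = 2.89e-09). For both genes each day 6 library lay far below each day 3 library.

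Most genes of monocytes and macrophages that were examined rose. Of 38 such genes, all of which passed the filter, 28 were higher and 2 lower at day 6, with a median log2 change of 1.40 against -0.03 over all genes tested. C1QA, C1QB and C1QC, the 3 chains of C1q, lie next to each other on chromosome 1 (chr1:22636506-22639608 for C1QA, hg38) and rose together. C1QA had 51.2, 69.5 and 66.8 CPM at day 6, against 0, 0.377 and 0.194 CPM at day 3. For C1QA the log2 fold change was 8.27 ± 0.37 (adjusted p = 7.63e-13). C1QB averaged 31.2 ± 4.31 CPM at day 6 and 0.290 ± 0.304 CPM at day 3 (SD, n = 3 each). C1QC averaged 82.6 ± 13.1 CPM at day 6 and 0.605 ± 0.0964 CPM at day 3. Every day 6 library was above every day 3 library for all 3 chains.

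CD14, the co-receptor for bacterial lipopolysaccharide, had 54.2, 74.3 and 80.4 CPM at day 6, against 0.513, 0.490 and 0.155 CPM at day 3. For CD14 the log2 fold change was 7.48 ± 0.21 (adjusted p = 1.70e-18). GPNMB, a glycoprotein of lipid-laden macrophages, had 109.6, 131 and 139.9 CPM at day 6, against 0.983, 0.829 and 0.466 CPM at day 3. For GPNMB the log2 fold change was 7.38 ± 0.31 (adjusted p = 6.74e-13). Neither gene's days overlapped. CD36, a scavenger receptor for oxidized lipids, averaged 224 ± 28.9 CPM at day 6 and 8.67 ± 0.230 CPM at day 3 and rose by 4.69 (log2). CSF1R, the receptor for the macrophage growth factor CSF1, was already present at day 3 and had 351, 432 and 457 CPM at day 6, against 107, 109 and 105 CPM at day 3. For CSF1R the log2 fold change was 1.95 ± 0.10 (adjusted p = 2.69e-14). The 2 members that fell were MNDA (log2 -0.26) and CLEC12A (log2 -0.84), with the call for MNDA lost without day 6 library 2 (log2 value -0.24). ITGAM, the CD11b integrin chain, had 647, 622 and 656 CPM at day 6, against 573, 598 and 582 CPM at day 3, and although the days did not overlap it did not pass the test (adjusted p = 0.394). CD68 was low on both days (0.819, 0.326 and 0.200 CPM at day 6, 0.513, 0.867 and 0.466 CPM at day 3), and exons of other genes cover 85.8% of its exon bases in the GENCODE 29 annotation, so its counts are uncertain. LAMP1, ELANE, PRTN3 and the members that are named only because a count within a list came to 5 or fewer were chosen after their values were seen.

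**Figure D2:**
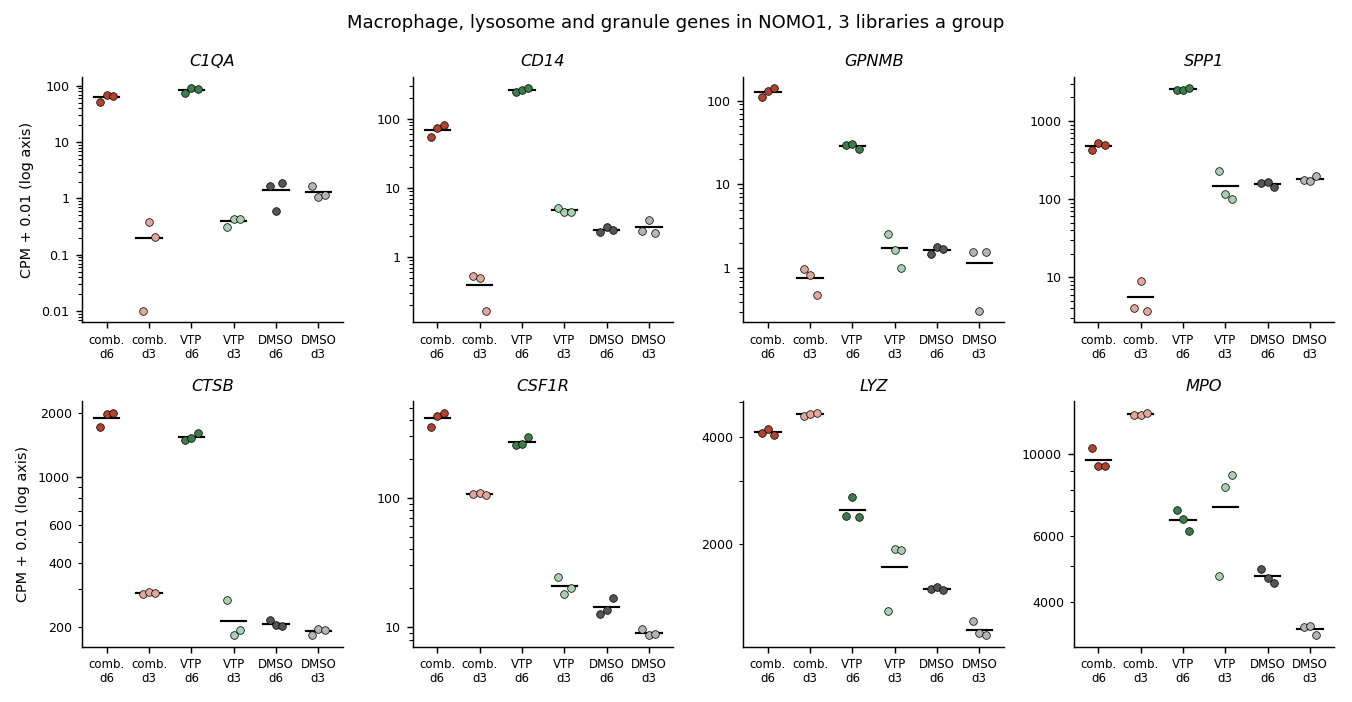
Level of 8 genes in CPM + 0.01 on a log axis (y) in each NOMO1 library (points) of 6 groups (x), with the group mean as a bar; comb. is the combination, and d6 and d3 are day 6 and day 3. C1QA, CD14, GPNMB, SPP1, CTSB and CSF1R were higher at day 6 than at day 3 with the combination, LYZ was not called, and MPO was lower.

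The promoters of CD14 and GPNMB are shown because both hold the letters TGANTCA, the motif of AP-1, a dimer of JUN and FOS family proteins. The windows are the 250 bases before the RefSeq start site on GRCh38.p14, read 5′ to 3′ on the gene's strand, chr5:140633176-140633425 on the minus strand for CD14 and chr7:23246525-23246774 on the plus strand for GPNMB, and capitals mark the motif.
CD14: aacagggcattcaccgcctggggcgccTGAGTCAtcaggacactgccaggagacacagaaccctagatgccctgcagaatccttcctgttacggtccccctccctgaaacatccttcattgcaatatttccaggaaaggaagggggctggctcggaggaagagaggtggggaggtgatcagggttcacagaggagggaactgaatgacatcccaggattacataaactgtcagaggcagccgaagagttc
GPNMB: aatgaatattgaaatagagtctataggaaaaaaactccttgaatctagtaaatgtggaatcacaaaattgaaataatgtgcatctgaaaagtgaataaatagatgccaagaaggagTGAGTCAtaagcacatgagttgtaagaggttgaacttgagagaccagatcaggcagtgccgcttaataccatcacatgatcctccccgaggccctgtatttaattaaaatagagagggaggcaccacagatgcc

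Of 10901 tested genes with a promoter in the RefSeq table, 6.38% held TGANTCA on either strand of the same window. The share was 8.28% of 2681 genes that were higher, 4.7% of 2234 that were lower, and 7 of the 31 monocyte and macrophage genes with a promoter (22.6%), namely CCR2, CD14, CD36, CD68, CSF1R, GPNMB and S100A12. A match describes the letters in a window and does not show that a factor binds there.

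Most receptors of phagocytes were higher too. Of 27 Fc, LILR and SIGLEC receptor and adaptor genes tested of 28, 21 were higher and 1, CD33, was lower, with a median log2 change of 1.41. FCGR3A, the CD16a receptor for antibody, had 48.5, 50.8 and 46.0 CPM at day 6, against 3.42, 4.56 and 2.68 CPM at day 3. For FCGR3A the log2 fold change was 3.76 ± 0.27 (adjusted p = 3.63e-09). LILRB1, an inhibitory receptor for class I molecules, averaged 23.2 ± 3.35 CPM at day 6 and 1.09 ± 0.207 CPM at day 3. TREM2, a lipid-sensing receptor, averaged 9.91 ± 1.35 CPM at day 6 and 0.615 ± 0.173 CPM at day 3, and its adaptor TYROBP averaged 823 ± 13.8 CPM at day 6 and 311 ± 14.5 CPM at day 3. CD33 averaged 43.9 ± 2.54 CPM at day 6 and 60.0 ± 7.05 CPM at day 3. For CD33 the log2 fold change was -0.45 ± 0.11 (adjusted p = 0.00168). Among 23 C-type lectin and scavenger receptor genes tested of 24, 14 were higher, including CLEC7A, the beta-glucan receptor Dectin-1 (log2 3.68), MSR1 (log2 6.13) and CD163, the hemoglobin scavenger receptor (log2 4.91), and 5 were lower (CLEC2A, CLEC2B, CLEC12A, CLEC12B and SCARB1, the receptor for high-density lipoprotein). The calls of 2 of the 5 were lost for CLEC2A without day 6 libraries 1 or 2 or day 3 libraries 1 or 2 (log2 values -2.24 to -1.70) and for CLEC12B without day 6 libraries 1 or 2 or day 3 library 1 (log2 values -1.05 to -0.75). Of 19 integrin and adhesion genes 12 were higher and 0 lower, with ITGB2 at 2435 ± 23.3 CPM at day 6 and 1136 ± 41.6 CPM at day 3.

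The lysosome, in which macrophages break down what they take up, had the largest share of members called higher among the 36 lists described. Of 32 lysosome genes tested, 30 were higher and 0 lower, with a median log2 change of 0.82. GLA (log2 0.17, adjusted p = 0.327) and the proton pump subunit ATP6V1A (log2 0.09, adjusted p = 0.326) did not pass. CTSB, a cysteine protease of the lysosome, had 1716, 1987 and 2007 CPM at day 6, against 287, 292 and 289 CPM at day 3. For CTSB the log2 fold change was 2.72 ± 0.10 (adjusted p = 2.99e-17). LGMN, an asparaginyl protease, averaged 84.2 ± 5.07 CPM at day 6 and 4.31 ± 0.95 CPM at day 3 and rose by 4.28 (log2), the largest change in the list. PSAP, the precursor of sphingolipid activators, averaged 5566 ± 120.2 CPM at day 6 and 2299 ± 60.1 CPM at day 3. ASAH1, acid ceramidase, averaged 450.4 ± 21.8 CPM at day 6 and 151 ± 5.46 CPM at day 3. CTSD, an aspartyl protease, averaged 1143 ± 50.6 CPM at day 6 and 369 ± 9.40 CPM at day 3, with 52.7% of its exon bases in exons of other genes, and the membrane protein LAMP1 averaged 377 ± 29.5 CPM at day 6 and 251 ± 4.34 CPM at day 3. For 31 of the 32 genes every day 6 library was above every day 3 library.

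The promoters of CTSD and LAMP1 are shown because TCACGTG, the core of the motif that the lysosomal regulators TFEB and TFE3 are known to bind, occurs in both. The windows are again 250 bases before the RefSeq start site on GRCh38.p14, chr11:1763928-1764177 on the minus strand for CTSD and chr13:113296989-113297238 on the plus strand for LAMP1, with the motif on either strand in capitals.
CTSD: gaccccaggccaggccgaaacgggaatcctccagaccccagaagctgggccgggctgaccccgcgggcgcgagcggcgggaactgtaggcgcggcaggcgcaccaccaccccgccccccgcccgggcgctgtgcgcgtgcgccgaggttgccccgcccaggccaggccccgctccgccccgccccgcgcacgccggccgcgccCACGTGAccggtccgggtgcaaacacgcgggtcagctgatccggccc
LAMP1: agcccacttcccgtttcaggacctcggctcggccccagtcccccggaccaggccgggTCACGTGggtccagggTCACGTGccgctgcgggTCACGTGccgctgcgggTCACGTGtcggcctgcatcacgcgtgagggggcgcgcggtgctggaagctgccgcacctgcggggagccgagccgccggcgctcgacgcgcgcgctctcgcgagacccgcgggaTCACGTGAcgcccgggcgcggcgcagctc

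LAMP1 has 6 matches, 2 of which overlap as the forward and reverse reading of 1 site. Of the 18 lysosome genes with a promoter in the table, 6 held TCACGTG (33.3%; ATP6V0D1, CTSA, CTSD, GAA, LAMP1 and MCOLN1), against 6.49% of all 10901 promoters, 7.01% of those of higher genes and 6.71% of those of lower genes.

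Members of the lipid efflux list and of the glutathione and NRF2 list were called higher and none lower. Of 16 lipid efflux genes tested of 17, 10 were higher and 0 lower. ABCA1, the cholesterol exporter, had 87.7, 104 and 97.5 CPM at day 6, against 15.3, 17.1 and 18.3 CPM at day 3. For ABCA1 the log2 fold change was 2.51 ± 0.18 (adjusted p = 4.13e-10). APOE averaged 231 ± 7.85 CPM at day 6 and 77.1 ± 1.5 CPM at day 3. CYP27A1, a sterol hydroxylase of mitochondria, averaged 169 ± 17.4 CPM at day 6 and 39.4 ± 1.68 CPM at day 3. Of 22 glutathione and NRF2 genes tested of 23, 16 were higher and 0 lower. HMOX1, which degrades heme, had 88.1, 115 and 115 CPM at day 6, against 3.12, 4.15 and 2.41 CPM at day 3. For HMOX1 the log2 fold change was 5.03 ± 0.29 (adjusted p = 7.00e-10). FTH1, the ferritin heavy chain, averaged 1824 ± 159.96 CPM at day 6 and 183 ± 13.1 CPM at day 3. The metallothioneins MT2A and MT1G rose by 1.78 and 1.76 (log2). FTH1 has processed pseudogenes, 62.4% of its exon bases lie in exons of other genes, and metallothionein genes are near copies of each other, so their counts are uncertain.

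Secreted signals changed mostly upward. Of 27 chemokine and cytokine genes tested of 31, 18 were higher and 1, TNFSF13B (BAFF), was lower, with a median log2 change of 2.21. SPP1, osteopontin, had 428, 522 and 496 CPM at day 6, against 4.06, 8.93 and 3.69 CPM at day 3. For SPP1 the log2 fold change was 6.42 ± 0.40 (adjusted p = 6.65e-09). CCL24, an eosinophil-attracting chemokine, averaged 83.0 ± 17.9 CPM at day 6 and 1.71 ± 0.182 CPM at day 3. CXCL16, a membrane-bound chemokine, averaged 137 ± 17.9 CPM at day 6 and 6.27 ± 0.438 CPM at day 3. CCL5, which was high on both days, averaged 476 ± 34.4 CPM at day 6 and 291 ± 6.99 CPM at day 3. For CCL5 the log2 fold change was 0.71 ± 0.09 (adjusted p = 2.38e-07). LIF had 13 counts at day 6 and 0 at day 3 and was at least 4.76-fold higher at day 6, a call (adjusted p = 0.0376) that was lost without day 6 library 1 or day 3 libraries 1, 2 or 3. Its fitted log2 value, which depends on the prior count, was 2.35 without day 6 library 1 and 5.13 with all libraries. Of 15 eicosanoid genes 10 were higher and 0 lower. PTGS1, cyclooxygenase 1, averaged 175 ± 2.98 CPM at day 6 and 73.7 ± 2.95 CPM at day 3. ALOX5AP, which presents arachidonate to 5-lipoxygenase, averaged 509.5 ± 23.4 CPM at day 6 and 221 ± 7.27 CPM at day 3. PLA2G7, the plasma platelet-activating factor hydrolase, rose by 6.34 (log2).

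Matrix genes split into a part that rose and a part that fell. Of 28 matrix and collagen genes tested of 31, 15 were higher and 7 lower. MMP14, a membrane-bound protease, averaged 119 ± 10.3 CPM at day 6 and 7.4 ± 1.37 CPM at day 3. TIMP1, an inhibitor of such proteases, averaged 329.9 ± 26.8 CPM at day 6 and 145 ± 4.13 CPM at day 3. FN1, fibronectin, had 15.5, 14.2 and 11.8 CPM at day 6, against 0.727, 0.716 and 0.272 CPM at day 3. For FN1 the log2 fold change was 4.59 ± 0.61 (adjusted p = 1.79e-05). SPARC, a collagen-binding protein, had 82.2, 71.1 and 71.6 CPM at day 6, against 408, 406 and 420.5 CPM at day 3. For SPARC the log2 fold change was -2.46 ± 0.15 (adjusted p = 1.98e-10). COL1A1 averaged 108 ± 3.40 CPM at day 6 and 233 ± 11.7 CPM at day 3. COL1A1 is also 1 of the 10 epithelial and stromal markers. KRT8, another of them, averaged 30.4 ± 3.38 CPM at day 6 and 167 ± 12.9 CPM at day 3. COL1A2 was at 0 counts in all day 3 libraries and was at least 15.4-fold higher at day 6, taking 3 counts over the group as the floor. MMP1, likewise at 0 counts at day 3, was at least 4.03-fold higher, a call that was lost without day 6 library 3 (fitted log2 3.65, which depends on the prior count).

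Antigen presentation genes did not move as 1 unit. Of 12 class II genes tested of 13, 6 were higher and 2 lower. The 2 that fell are the DR alpha chain and the invariant chain: HLA-DRA had 241, 273 and 260.3 CPM at day 6, against 427, 456 and 434 CPM at day 3. For HLA-DRA the log2 fold change was -0.77 ± 0.09 (adjusted p = 9.19e-08). CD74, the invariant chain, averaged 1034 ± 58.3 CPM at day 6 and 1460.3 ± 23.2 CPM at day 3. HLA-DMB, which helps load peptide, averaged 37.9 ± 3.31 CPM at day 6 and 14.2 ± 0.517 CPM at day 3. HLA-DQB1 averaged 5.14 ± 1.28 CPM at day 6 and 1.07 ± 0.108 CPM at day 3. Alleles of the polymorphic DR and DQ beta chains can escape alignment, so their counts are uncertain. Of 15 class I genes 8 were higher, with B2M at 5749.7 ± 58.9 CPM at day 6 and 3812 ± 126 CPM at day 3, and 1, the transporter TAP2, was lower. Of 31 interferon-stimulated genes tested of 34, 10 were higher, led by OAS1 (log2 4.81), 4 were lower (IFITM1, RSAD2, DDX58 and STAT2) and 17 were not called. Over all genes 21% were higher and 19.2% lower. The call for IFITM1 was lost without day 6 libraries 1 or 3 or day 3 libraries 2 or 3 (log2 values -0.54 to -0.46).

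Granule genes of the neutrophil lineage gave a mixed picture. Of 31 tested of 33, 18 were higher and 2, MPO and PRTN3, were lower. CEACAM8, a surface marker of granulocyte secondary granules, had 196, 168 and 205 CPM at day 6, against 17.0, 14.4 and 15.5 CPM at day 3. For CEACAM8 the log2 fold change was 3.60 ± 0.16 (adjusted p = 6.41e-14). FPR1, the formyl peptide receptor, averaged 102 ± 7.99 CPM at day 6 and 14.9 ± 0.604 CPM at day 3. ELANE, neutrophil elastase, averaged 1823 ± 134 CPM at day 6 and 955 ± 18 CPM at day 3, and its neighbor PRTN3, proteinase 3, averaged 2607 ± 185 CPM at day 6 and 5764 ± 89.7 CPM at day 3. MPO, myeloperoxidase, averaged 9642 ± 600.2 CPM at day 6 and 12765 ± 123 CPM at day 3. For MPO the log2 fold change was -0.40 ± 0.14 (adjusted p = 0.0299), a call that was lost without day 6 libraries 2 or 3 or day 3 libraries 1, 2 or 3 (log2 values -0.42 to -0.38). LYZ, lysozyme, had 4101, 4204 and 4052 CPM at day 6, against 4585, 4644 and 4682 CPM at day 3, and with a log2 change of -0.17 ± 0.10 it did not pass the test (adjusted p = 0.16), although every day 6 library lay below every day 3 library. DEFA3 and DEFA1B rose by 4.94 and 4.85 (log2), but defensin genes are near copies and share reads. Of 8 NADPH oxidase genes 7 were higher and 0 lower, and CYBB, the catalytic subunit, did not pass (log2 0.28, adjusted p = 0.185).

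The genes that menin and KMT2A are known to hold active mostly fell. Of 22 non-HOX targets of menin and KMT2A tested of 24, 12 were lower and 6 higher, with a median log2 change of -0.38. MEIS1, the homeobox partner of the HOXA proteins, had 0 counts in all 3 day 6 libraries, against 2.39, 1.77 and 1.67 CPM at day 3 (146 counts over the group), so it was at least 44.3-fold lower at day 6 (adjusted p = 4.30e-11). In DMSO, MEIS1 stood at 27.0, 24.8 and 22.1 CPM at day 6 and 29.4, 27.0 and 24.9 CPM at day 3. SKIDA1, a target with a SKI/DACH domain, had 0.450, 0.571 and 0.351 CPM at day 6, against 11.8, 11.1 and 12.1 CPM at day 3. For SKIDA1 the log2 fold change was -4.64 ± 0.36 (adjusted p = 1.31e-09). FLT3, a receptor kinase of progenitors, had 18.1, 17.3 and 20.9 CPM at day 6, against 39.9, 42.5 and 42.6 CPM at day 3. For FLT3 the log2 fold change was -1.15 ± 0.13 (adjusted p = 5.11e-08). IGF2BP2, an RNA-binding protein, averaged 30.3 ± 5.44 CPM at day 6 and 82.0 ± 3.58 CPM at day 3. The anti-apoptotic BCL2 averaged 33.5 ± 5.41 CPM at day 6 and 63.4 ± 3.01 CPM at day 3. RUNX2, a Runt family transcription factor, rose to 31.9 ± 3.88 CPM at day 6, against 10.1 ± 2.19 CPM at day 3. MEF2C was not called (log2 -0.10 ± 0.23, adjusted p = 0.75), and its value was 0.03 without day 3 library 2.

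Of 12 HOX genes tested of 19, 6 were lower (HOXA3, HOXA5, HOXA6, HOXA7, HOXA9 and HOXA10), 2 were higher, HOXA13 among them, and 4 were not called. Over all genes 19.2% were lower and 21% higher. HOXA9, which immortalizes progenitors together with MEIS1, had 9.54, 13 and 8.12 CPM at day 6, against 17.5, 21.9 and 21 CPM at day 3. For HOXA9 the log2 fold change was -0.97 ± 0.14 (adjusted p = 2.02e-06), and all day 6 libraries were below all day 3 libraries. HOXA7 was low on both days (0.164, 0 and 0 CPM at day 6, 1.28, 1.02 and 1.4 CPM at day 3), its log2 fold change of -4.31 became -7.86 without day 6 library 1, and 62.5% of its exon bases lie in exons of other genes. Without that library HOXA7 has no day 6 count, so the value of -7.86 depends on the prior count. The call for HOXA6 (adjusted p = 0.0353) was lost without day 6 libraries 1 or 3 or day 3 libraries 2 or 3, and its value was -6.51 without day 6 library 2, against -2.43 with all libraries. The call for HOXA13 (log2 0.76) was lost without day 6 libraries 2 or 3 or day 3 libraries 1, 2 or 3 (log2 values 0.52 to 0.82). Of 20 genes of the menin and KMT2A complexes, 4 were higher (KMT2A, AFF4, CDK9 and EED) and 6 lower, against 21% and 19.2% over all genes, with a median log2 change of -0.02 and with the call for EED lost without day 6 libraries 1 or 3 or day 3 libraries 1, 2 or 3 (log2 values 0.26 to 0.30). KMT2A averaged 39.7 ± 4.32 CPM at day 6 and 16.9 ± 1.4 CPM at day 3. MEN1, which encodes menin, averaged 27.6 ± 4.08 CPM at day 6 and 37.2 ± 1.05 CPM at day 3. BMI1, a subunit of Polycomb complex 1, had 33.9, 26.9 and 31.6 CPM at day 6, against 84.8, 85.5 and 91.9 CPM at day 3. For BMI1 the log2 fold change was -1.5 ± 0.11 (adjusted p = 3.38e-11).

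**Figure D3:**
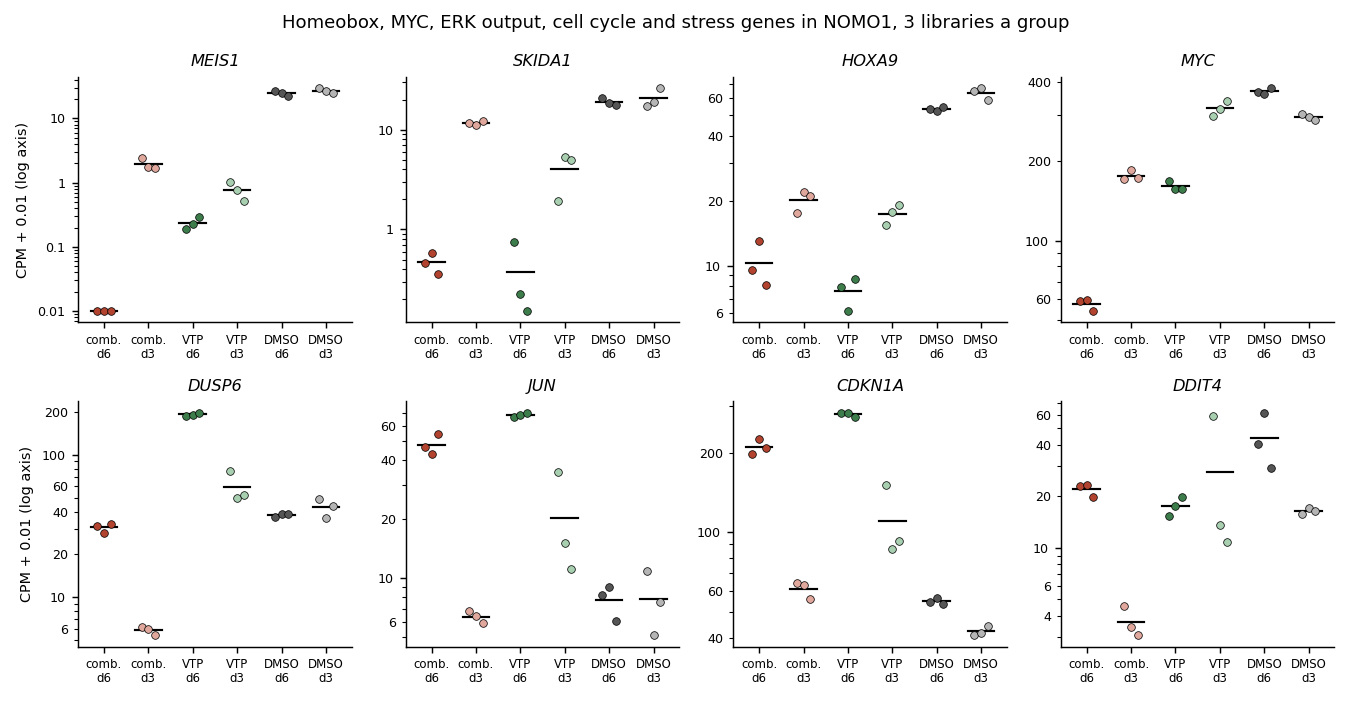
Level of 8 genes in CPM + 0.01 on a log axis (y) in each NOMO1 library (points) of 6 groups (x), with the group mean as a bar; comb. is the combination, and d6 and d3 are day 6 and day 3. With the combination MEIS1, SKIDA1, HOXA9 and MYC were lower and DUSP6, JUN, CDKN1A and DDIT4 higher at day 6 than at day 3; DUSP6 at day 6 stayed below its level with VTP-50469 alone.

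Among 22 regulators of hematopoietic progenitors tested of 26, 9 were higher and 6 lower, against 21% and 19.2% over all genes. KIT, the stem cell factor receptor, had 12.8, 12.9 and 15.5 CPM at day 6, against 0.941, 1.28 and 0.931 CPM at day 3. For KIT the log2 fold change was 3.69 ± 0.36 (adjusted p = 6.55e-09). ID3, an inhibitor of E proteins, averaged 9.70 ± 0.456 CPM at day 6 and 2.08 ± 0.398 CPM at day 3. CEBPB and SPI1 (PU.1), both myeloid transcription factors, were higher, CEBPB with 276 ± 8.45 CPM at day 6 and 107 ± 11.9 CPM at day 3 and SPI1 with 599 ± 29.2 CPM at day 6 and 442 ± 6.89 CPM at day 3.

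Nearly all genes of the MYC and nucleolar list fell. Of 32 MYC and nucleolar genes, 30 were lower and 0 higher, with a median log2 change of -0.83, and the 2 that did not pass were ODC1 (log2 -0.06, adjusted p = 0.514) and LDHA (log2 -0.21, adjusted p = 0.374). MYC had 59.3, 59.8 and 54.1 CPM at day 6, against 171, 184 and 173 CPM at day 3. For MYC the log2 fold change was -1.61 ± 0.07 (adjusted p = 2.82e-16). WDR12, a ribosome assembly factor, had 11.9, 11.0 and 10.7 CPM at day 6, against 25.4, 28.9 and 26.3 CPM at day 3. For WDR12 the log2 fold change was -1.26 ± 0.10 (adjusted p = 1.72e-10). POLR1B, a subunit of RNA polymerase I, averaged 10.9 ± 0.978 CPM at day 6 and 26.4 ± 1.62 CPM at day 3. Of the 30, 29 had means below the DMSO day 6 mean on both days, and all 30 were below the VTP-50469 day 6 mean at day 6. NOP2 had 0.0819, 0.122 and 0 CPM at day 6 and 0.342, 0.867 and 0.233 CPM at day 3, its call (adjusted p = 0.0468) was lost without day 6 libraries 1, 2 or 3 or day 3 libraries 1 or 2 (log2 values -3.31 to -1.94), and 54.4% of its exon bases lie in exons of other genes. The letters CACGTG, the E-box that MYC is known to bind, occurred in 6 of the 25 list members with a promoter (24%; LDHA, ODC1, PPAT, SRM, UTP20 and UTP4), against 11.2% of all promoters, 13.1% of those of lower genes and 11.3% of those of higher genes. Ribosomal protein genes stood near the background of 19.2% lower, with 6 of 32 cytosolic ones lower, 0 higher and 26 not called. The 6 became 3 without day 3 library 2 and 19 with libraries scaled by their totals. They became 14 without library 1 of VTP-50469 day 3, which is in neither group compared. That library enters the filter, the scaling and the shared spread.

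Transcripts of the mitochondrial genome fell with the share of counts they take. Of 13 mitochondrially encoded protein genes 12 were lower, with a median log2 change of -1.14, and MT-CO1 did not pass (log2 -0.41, adjusted p = 0.0841). MT-ND2 had 417, 468 and 597 CPM at day 6, against 1634, 1395 and 1704 CPM at day 3. For MT-ND2 the log2 fold change was -1.67 ± 0.23 (adjusted p = 3.20e-05). Of 27 nuclear oxidative phosphorylation genes tested of 30, 12 were lower, with ATP5F1A at 499 ± 16.0 CPM at day 6 and 657 ± 5.70 CPM at day 3, and 2, UQCRC1 and COX4I1, higher. These 2 calls were lost for UQCRC1 without day 6 libraries 1 or 2 or day 3 libraries 1 or 3 (log2 values 0.18 to 0.20) and for COX4I1 without day 6 libraries 1, 2 or 3 or day 3 libraries 1 or 3 (log2 values 0.16 to 0.21). Lipid synthesis fell too: of 12 fatty acid synthesis genes 9 were lower and 3 (ELOVL5, ME1 and MID1IP1) higher, and of 24 cholesterol synthesis genes tested of 25, 11 were lower and 1, INSIG1, higher. Over all genes 19.2% were lower and 21% higher. The calls of small rises were lost for ME1 without day 6 libraries 1 or 3 or day 3 libraries 1 or 2 (log2 values 0.18 to 0.23), for MID1IP1 without day 6 library 1 or day 3 libraries 1 or 2 (log2 values 0.18 to 0.20) and for INSIG1 without day 6 libraries 1, 2 or 3 or day 3 libraries 1, 2 or 3 (log2 values 0.26 to 0.31). SCD, stearoyl-CoA desaturase, had 262, 227 and 239.8 CPM at day 6, against 529, 556 and 511 CPM at day 3. For SCD the log2 fold change was -1.13 ± 0.09 (adjusted p = 7.96e-11). FASN, fatty acid synthase, averaged 201 ± 15.7 CPM at day 6 and 325 ± 13.7 CPM at day 3. LSS, lanosterol synthase, averaged 26.0 ± 2.29 CPM at day 6 and 52.2 ± 4.22 CPM at day 3.

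Among cell cycle genes the replication list had more members lower than higher, set against 19.2% lower and 21% higher over all genes. Of 40 DNA replication genes 14 were lower and 2, ORC6 and RRM2, higher; 23 were lower when only the 2 groups compared were fitted, and the call for ORC6 was lost without day 6 libraries 1, 2 or 3 or day 3 libraries 1, 2 or 3 (log2 values 0.25 to 0.35). MCM3, a subunit of the replicative helicase, averaged 159 ± 7.44 CPM at day 6 and 225 ± 1.42 CPM at day 3, whereas RRM2, a subunit of ribonucleotide reductase, averaged 95.4 ± 5.21 CPM at day 6 and 58.1 ± 2.80 CPM at day 3. Of 30 mitosis genes 4 were higher (MKI67, CDK1, KIF20A and KIF23) and 0 lower, against 21% and 19.2% over all genes, and the number higher was 1 with scaling by library totals, 2 without any 1 of day 6 libraries 2 and 3 and day 3 libraries 2 and 3, 9 without library 1 of VTP-50469 day 3, and 10 with only the 2 groups fitted. MKI67, the Ki-67 antigen of dividing cells, had 218, 211 and 208 CPM at day 6, against 115, 135 and 106 CPM at day 3. For MKI67 the log2 fold change was 0.84 ± 0.10 (adjusted p = 2.80e-07), and TOP2A did not pass (log2 0.12 ± 0.08, adjusted p = 0.27). Calls were lost for KIF20A without day 6 libraries 2 or 3 or day 3 libraries 1, 2 or 3 (log2 values 0.37 to 0.47) and for KIF23 without day 6 libraries 1, 2 or 3 or day 3 libraries 2 or 3 (log2 values 0.20 to 0.29). Of 11 histone genes tested of 23, whose sequences are near copies, 5 were higher and 0 lower. CDKN1A, the p21 inhibitor of cyclin-dependent kinases, had 197, 226 and 208 CPM at day 6, against 64.3, 63.3 and 56.1 CPM at day 3. For CDKN1A the log2 fold change was 1.78 ± 0.14 (adjusted p = 3.78e-09). CDKN1B, the p27 inhibitor, averaged 112 ± 0.963 CPM at day 6 and 68.4 ± 2.93 CPM at day 3. CDKN2D, the p19 inhibitor, averaged 37.2 ± 2.20 CPM at day 6 and 13.7 ± 1.95 CPM at day 3. Of 15 cyclins, kinases and inhibitors tested of 17, 8 were higher and 4 (CDK4, CDK6, CDKN2C and RBL1) lower, with CDK4 at 30.4 ± 2.86 CPM at day 6 and 50.9 ± 2.55 CPM at day 3.

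Genes that report on ERK activity were more often higher than lower at day 6, also with VTP-50469 alone (10 higher and 1 lower of 19). Of 19 ERK feedback and output genes tested of 20, 10 were higher and 3 (SPRED2, SPRED3 and ETV4) lower, of which 0 were called without day 6 library 2 and 1 without day 3 library 3. Calls were lost for SPRED2 without day 6 library 2 or day 3 library 3 (log2 values -0.29 to -0.26) and for SPRED3 without day 6 libraries 1 or 2 or day 3 libraries 1 or 3 (log2 values -1.47 to -1.0). DUSP6, the ERK phosphatase, had 31.9, 28.2 and 32.8 CPM at day 6, against 6.2, 6.03 and 5.39 CPM at day 3. For DUSP6 the log2 fold change was 2.40 ± 0.16 (adjusted p = 7.96e-11), while VTP-50469 alone gave 187, 192 and 198 CPM and DMSO 36.9, 38.3 and 38.7 CPM at day 6. At day 6 DUSP6 was below both other day 6 groups, with no overlap. DUSP4, a nuclear phosphatase of the same family, had 7.90, 6.64 and 8.12 CPM at day 6, against 0.342, 0.264 and 0.0776 CPM at day 3. For DUSP4 the log2 fold change was 5.04 ± 0.44 (adjusted p = 7.83e-09). ETV5, a transcription factor under ERK control, averaged 13.8 ± 0.907 CPM at day 6 and 2.19 ± 0.122 CPM at day 3. SPRY4, a feedback inhibitor, had 2.17, 2.81 and 1.30 CPM at day 6, against 0.727, 0.905 and 1.86 CPM at day 3 with overlapping days and did not pass (adjusted p = 0.176), against 65.9 ± 6.19 CPM with VTP-50469 alone and 27.0 ± 5.0 CPM with DMSO at day 6. Of the 10 genes that rose, 9 had a day 6 mean below that of VTP-50469 alone, 5 crossed the DMSO day 6 mean between the days, 4 were below it on both days and 1 was above it on both. Over the list the median log2 day change was 0.97 with the combination and 0.81 with VTP-50469 alone. The day change was larger with the combination for 2 of 19 genes and smaller for 0, against 2.02% and 1.75% over all genes. ETV4 averaged 0.539 ± 0.175 CPM at day 6 and 1.18 ± 0.574 CPM at day 3, and its call (adjusted p = 0.0228) was lost without day 6 libraries 2 or 3 or day 3 library 2 (log2 values -1.15 to -0.67), against -1.11 with all libraries.

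Immediate early genes, which respond to many stimuli besides ERK, rose in 17 of 24 cases tested of 25, and 2, FOSL1 and MYC, were lower, with the call for FOSL1 lost without day 6 library 2 or day 3 library 3 (log2 values -1.07 to -1.06). JUN had 46.9, 42.9 and 54.4 CPM at day 6, against 6.76, 6.37 and 5.90 CPM at day 3. For JUN the log2 fold change was 2.92 ± 0.37 (adjusted p = 1.12e-05). FOS had 33.1, 27.5 and 22.8 CPM at day 6, against 5.09, 6.45 and 4.81 CPM at day 3. For FOS the log2 fold change was 2.35 ± 0.46 (adjusted p = 0.000866). KLF6, a zinc finger transcription factor, averaged 170.00 ± 10.6 CPM at day 6 and 63.3 ± 3.02 CPM at day 3. EGR1 was low on both days and did not pass (log2 0.81 ± 0.89, adjusted p = 0.511), with 1.47, 1.39 and 1.40 CPM at day 6 and 1.03, 0.490 and 0.931 CPM at day 3, against 31.1 ± 4.18 CPM with VTP-50469 alone at day 6. Among 21 genes of the RAS and MAP kinase pathway itself, 15 were higher and 1, NRAS, was lower, with RASGRP3, an activator of RAS, highest at a log2 change of 1.92 and the other 14 of the 15 between 0.27 and 0.72. GRB2, the adaptor between receptors and RAS, averaged 564 ± 11.2 CPM at day 6 and 343 ± 12.3 CPM at day 3. MAP2K1, which encodes MEK1, averaged 61.3 ± 1.03 CPM at day 6 and 40.2 ± 2.14 CPM at day 3. The call for NRAS (adjusted p = 0.0156) was lost without day 6 library 2 or day 3 library 3 (log2 values -0.23 to -0.21).

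Many stress and glucose genes were higher at day 6. Of 26 amino acid and protein stress genes 15 were higher and 0 lower, a count of 9 without day 3 library 2. DDIT4, an inhibitor of mTORC1, had 23.0, 23.4 and 19.9 CPM at day 6, against 4.53, 3.43 and 3.07 CPM at day 3. For DDIT4 the log2 fold change was 2.59 ± 0.58 (adjusted p = 0.00215). ASNS, asparagine synthetase, averaged 1.93 ± 0.222 CPM at day 6 and 0.489 ± 0.193 CPM at day 3. DDIT3, the CHOP transcription factor, averaged 15.9 ± 1.42 CPM at day 6 and 7.03 ± 0.607 CPM at day 3. SLC3A2, the heavy chain of amino acid transporters, averaged 108 ± 3.64 CPM at day 6 and 49.8 ± 1.54 CPM at day 3. Of 28 glycolysis and hypoxia genes 12 were higher and 3 (PFKP, ENO1 and PKM) lower, against 21% and 19.2% over all genes. PDK4, which inhibits pyruvate dehydrogenase, had 137, 179.5 and 208 CPM at day 6, against 8.17, 7.54 and 7.37 CPM at day 3. For PDK4 the log2 fold change was 4.51 ± 0.18 (adjusted p = 6.25e-15). TXNIP, an inhibitor of glucose uptake, had 1795, 1788 and 1757 CPM at day 6, against 652, 668 and 651 CPM at day 3. For TXNIP the log2 fold change was 1.4 ± 0.10 (adjusted p = 5.69e-11). HK2, hexokinase 2, averaged 227 ± 9.47 CPM at day 6 and 92.3 ± 8.12 CPM at day 3.

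Of 22 p53 target genes 13 were higher and 2 (CCNG1 and AEN) lower, and of 16 BCL2 family genes 8 were higher and 3 (BCL2, BOK and HRK) lower. Over all genes 21% were higher and 19.2% lower. MCL1, which protects cells from apoptosis, had 289, 292 and 283 CPM at day 6, against 174, 176 and 173 CPM at day 3. For MCL1 the log2 fold change was 0.72 ± 0.07 (adjusted p = 4.38e-09). BBC3 (PUMA) and PMAIP1 (NOXA), which promote it, rose by 0.85 and 1.23 (log2). HRK had 0 counts in all day 6 libraries and was at least 9.10-fold lower at day 6, against 0.257, 0.528 and 0.388 CPM at day 3. GDF15, a p53 target and stress cytokine, rose by 4.10 (log2), a value of 6.45 without day 3 library 1. BOK changed by -2.26, or -3.54 without day 6 library 1.

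**Figure D4:**
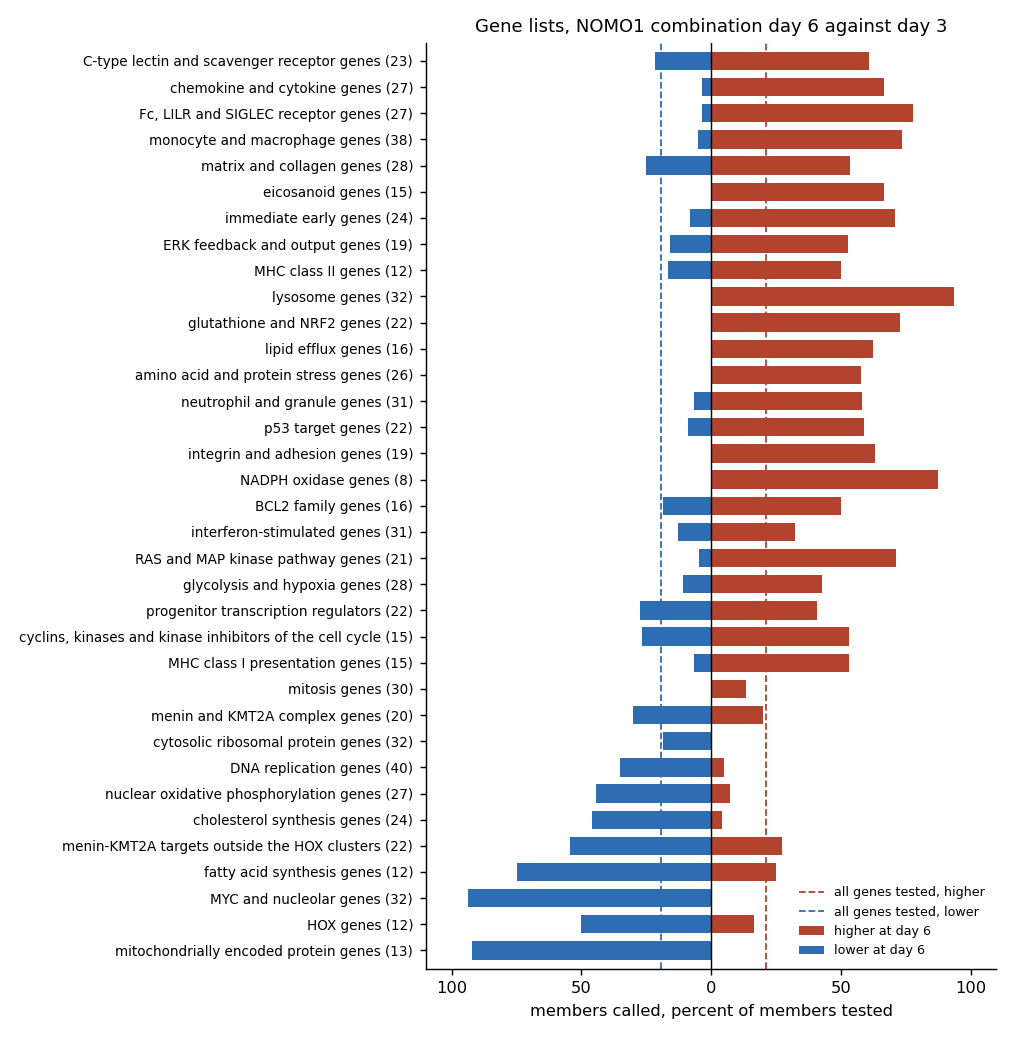
Share of tested members called higher (red, right) or lower (blue, left) at day 6 in NOMO1 with the combination, in percent (x axis), for 35 gene lists (y axis, number tested in brackets; histone genes left out) in the order of their median log2 change. Dashed lines mark the shares over all 16570 genes tested, 21% higher and 19.2% lower; the lysosome list reaches 30 of 32 higher and the MYC and nucleolar list 30 of 32 lower.

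Set against DMSO at day 6, the genes that moved at least 2-fold between the days did not all move away from the vehicle. Of the 958 higher genes, 405 had means above the DMSO day 6 mean on both days, 488 were above it at day 6 and below it at day 3, and 65 were below it on both days. Of the 1002 lower genes, 444 were below it on both days, 457 were below it at day 6 and above it at day 3, and 101 were above it on both days. Of the 30 lysosome genes called higher, taken without a 2-fold minimum, 23 were above it on both days and 7 crossed it. With that unlike threshold, these counts are not to be set against those of the 958 genes.

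To ask whether the day change depends on the MEK inhibitor, the change with the combination was tested against the change with VTP-50469 alone, which shares no library with it. VTP-50469 alone changed 3378 genes (20.4%) up and 3610 (21.8%) down from day 3 to day 6. The 2 day changes differed for 624 of 16570 genes (3.77%), 334 with a larger (2.02%) and 290 with a smaller (1.75%) value with the combination. These counts rest on library 1 of VTP-50469 day 3, which stands apart: without it 840 were larger and 914 smaller. They were 204, 209, 169, 190, 166, 190 and 165 larger without, in turn, combination day 6 libraries 1 and 2, combination day 3 libraries 1, 2 and 3, and VTP-50469 day 6 libraries 1 and 3, and 187 and 193 smaller without combination day 6 library 1 and day 3 library 3. With scaling by library totals 40% of the called differences were larger, against 53.5% with TMM.

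Some of the largest macrophage changes were shared and others were not. C1QA rose by 8.27 (log2) with the combination and by 7.75 with VTP-50469 alone, and the difference did not pass the test (0.52 ± 0.74, adjusted p = 0.795). CD14 rose by 7.48 with the combination and 5.80 with VTP-50469 alone (difference 1.69 ± 0.32, adjusted p = 0.00259), yet its level at day 6 was 54.2, 74.3 and 80.4 CPM with the combination, against 247, 264 and 276 CPM with VTP-50469 alone. Its day 3 levels were 0.513, 0.490 and 0.155 CPM with the combination, against 5.17, 4.48 and 4.51 CPM with VTP-50469 alone. GPNMB went further with the combination on both measures, with a change of 7.38 against 4.09 (difference 3.29 ± 0.46, adjusted p = 0.000371) and day 6 levels of 109.6, 131 and 139.9 CPM, against 29.8, 30.5 and 26.7 CPM with VTP-50469 alone. CCL24 was also higher at day 6, with 63.3, 87.4 and 98.3 CPM at day 6 with the combination, against 9.77, 9.24 and 8.96 CPM with VTP-50469 alone (difference 2.82 ± 0.40, adjusted p = 0.000244). Among 27 chemokine and cytokine genes the change was larger with the combination for 7 and smaller for 0, against 2.02% and 1.75% over all genes.

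CSF1R and TXNIP had smaller day changes with the combination on the log scale, although both stood higher with the combination on each day. CSF1R had 351, 432 and 457 CPM at day 6 and 107, 109 and 105 CPM at day 3 with the combination, and 256, 263 and 295 CPM at day 6 and 24.2, 18.1 and 20.1 CPM at day 3 with VTP-50469 alone (difference -1.76 ± 0.14, adjusted p = 1.36e-08). TXNIP averaged 1780.00 ± 20.3 CPM at day 6 and 657 ± 9.58 CPM at day 3 with the combination, and 930.2 ± 8.09 and 70.5 ± 7.91 CPM with VTP-50469 alone (difference -2.28 ± 0.15, adjusted p = 6.04e-10). MYC fell by 1.61 (log2) with the combination and by 0.97 with VTP-50469 alone (difference -0.63 ± 0.09, adjusted p = 0.000211), and its day 6 levels were 59.3, 59.8 and 54.1 CPM with the combination, against 169, 157 and 158 CPM with VTP-50469 alone. LYZ changed by -0.17 with the combination and 0.54 with VTP-50469 alone (difference -0.71 ± 0.13, adjusted p = 0.00248). ETV5 rose more with the combination (difference 1.29 ± 0.25, adjusted p = 0.00543), but to 13.3, 14.8 and 13.2 CPM at day 6, against 162, 174 and 179 CPM with VTP-50469 alone. MEIS1 was at 0 counts at day 6 with the combination, against 0.176, 0.217 and 0.284 CPM with VTP-50469 alone, and its day changes differed (adjusted p = 0.000255).

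Of 40 DNA replication genes 13 had a larger (less negative or more positive) change with the combination and 0 a smaller one. Over all genes the shares were 2.02% larger and 1.75% smaller. RRM2 changed by 0.72 (log2) with the combination and -0.41 with VTP-50469 alone (difference 1.12 ± 0.13, adjusted p = 6.56e-06). Of 26 amino acid and protein stress genes 6 were larger and 0 smaller. DDIT4 changed by 2.59 with the combination and -0.65 with VTP-50469 alone (difference 3.24 ± 0.77, adjusted p = 0.0298). In VTP-50469 day 3 library 1 DDIT4 stood at 59.1 CPM, against 13.5 and 10.9 CPM in libraries 2 and 3, and without that library the difference was 2.05. The call was lost without combination day 6 libraries 1 or 2 or combination day 3 libraries 1, 2 or 3 or VTP-50469 day 6 libraries 1, 2 or 3 (log2 values 3.12 to 3.40). CD163 had a smaller change with the combination (difference -2.37 ± 0.68, adjusted p = 0.0486), which was -3.59 without VTP-50469 day 3 library 1 and lost its call without combination day 6 libraries 1 or 2 or combination day 3 libraries 1, 2 or 3 or VTP-50469 day 6 libraries 1, 2 or 3 or VTP-50469 day 3 libraries 2 or 3 (log2 values -2.51 to -1.99). The call for ZMYND15 (difference 3.19 ± 0.85, adjusted p = 0.0332) was lost without combination day 6 libraries 2 or 3 or combination day 3 libraries 1, 2 or 3 or VTP-50469 day 6 libraries 1 or 3 (log2 values 2.96 to 3.53). Of 38 monocyte and macrophage genes 5 were larger and 8 smaller, and of 32 lysosome genes 0 were larger and 3 smaller, or 5 smaller with scaling by library totals.

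**Figure D5:**
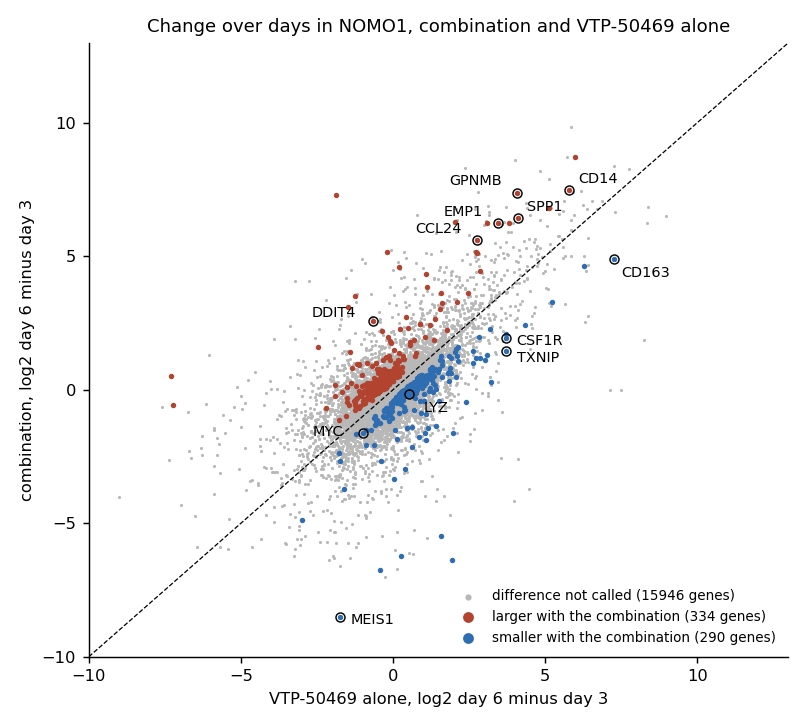
Fitted log2 change from day 3 to day 6 with the combination (y axis) against that with VTP-50469 alone (x axis) for the 16570 genes tested in NOMO1; the dashed line marks equal changes. Red points are the 334 genes with a larger and blue points the 290 with a smaller change with the combination, and circles mark genes named in the text.

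The change over days was also measured in the DMSO vehicle. In DMSO 4638 genes (28%) were higher and 3788 (22.9%) lower at day 6 than at day 3. The mitochondrial share of these libraries was 2.73% to 3.68% at day 6 and 17.6% to 18% at day 3. Genes with a count numbered 20486 to 20585 at day 6 and 17750 to 18673 at day 3. The day and the state of the day 3 libraries cannot be told apart, and the part of that state in the result was not tested. The day change with the combination differed from that in DMSO for 7652 genes (46.2%), larger for 3410 (20.6%) and smaller for 4242 (25.6%). Scaling by library totals gave 1753 larger and 6942 smaller and moved the median of all genes to -0.49 (log2), against -0.05 with TMM. A change of scaling shifts all genes by nearly the same amount. Relative to the median of each fit, single genes therefore had alike values, 7.64 and 7.64 for CD14 and -1.88 and -1.88 for MYC. That likeness follows from the arithmetic and does not tell which scaling is right. The differences given next are from the TMM fit, not set against the median. Of 38 monocyte and macrophage genes 25 had a larger and 6 a smaller change with the combination, or 22 and 8 with scaling by library totals. CD14 changed by 7.48 (log2) with the combination and -0.10 in DMSO (difference 7.59 ± 0.32, adjusted p = 2.83e-15), and C1QA by 8.27 and 0.07 (difference 8.20 ± 0.61, adjusted p = 1.30e-09). MYC fell by 1.61 with the combination and changed by 0.32 in DMSO (difference -1.93 ± 0.09, adjusted p = 6.04e-15). FLT3 and BCL2, which fell with the combination, changed by 1.15 and 0.96 in DMSO (differences -2.30 ± 0.18, adjusted p = 7.65e-11, and -1.88 ± 0.13, adjusted p = 1.01e-11). DUSP6 changed by -0.18 in DMSO (difference 2.57 ± 0.21, adjusted p = 1.42e-09). MCL1 had a difference of 0.26 ± 0.10, adjusted p = 0.0362, which was -0.19 with scaling by library totals and whose call was lost without combination day 6 libraries 1, 2 or 3 or combination day 3 libraries 1, 2 or 3 or DMSO day 6 libraries 1, 2 or 3 or DMSO day 3 libraries 1, 2 or 3 (log2 values 0.18 to 0.24). Of 32 lysosome genes 25 had a larger and 3 a smaller change than in DMSO, but 14 and 6 with scaling by library totals.

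The same drugs and days in OCI-AML3 set the NOMO1 changes beside those of another leukemia line. With the combination 1383 (8.44%) of 16384 genes were higher and 1079 (6.59%) lower at day 6 in that line. In a fit over both lines the day change was larger in NOMO1 for 2566 of 18707 genes (13.7%) and smaller for 2290 (12.2%), which is 26% in all. MYC had 69.6, 69.9 and 63.0 CPM at day 6 and 202, 219 and 205 CPM at day 3 in NOMO1, and 228, 227 and 229 CPM at day 6 and 122, 140.5 and 154 CPM at day 3 in OCI-AML3 on the scale of that fit (difference -2.34 ± 0.13, adjusted p = 2.76e-18). MYC fell in NOMO1 and was higher at day 6 in OCI-AML3 (log2 0.75, adjusted p = 3.51e-05 in a fit of that line alone), and 31 of 32 MYC and nucleolar genes had a smaller change in NOMO1, with 0 larger. CSF1R had 413, 504 and 531 CPM at day 6 and 127, 129.9 and 124 CPM at day 3 in NOMO1, and 9.68, 5.64 and 10.2 CPM at day 6 and 18.6, 18.9 and 15 CPM at day 3 in OCI-AML3 (difference 2.96 ± 0.29, adjusted p = 4.00e-09). CD36 differed by 4.59 ± 0.18, adjusted p = 9.49e-22, with 129, 136 and 109 CPM at day 6 and 125, 116 and 113 CPM at day 3 in OCI-AML3, where it was high on both days.

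Of 38 monocyte and macrophage genes 12 had a larger and 5 a smaller day change in NOMO1, and of 32 lysosome genes 24 a larger and 0 a smaller one. Over all genes the shares were 13.7% larger and 12.2% smaller. HOXA9 averaged 12 CPM at day 6 and 23.9 CPM at day 3 in NOMO1, and 81.1 and 64.1 CPM in OCI-AML3 (difference -1.33 ± 0.17, adjusted p = 7.46e-08). MEIS1 had 0 counts at day 6 and 146 at day 3 in NOMO1, and 1429 and 2541 in OCI-AML3 (adjusted p = 1.09e-11). DUSP6 was higher at day 6 in NOMO1 and low on both days in OCI-AML3, with 0.731, 2.16 and 1.69 CPM at day 6 and 0.745, 1.02 and 1.65 CPM at day 3 (difference 1.96 ± 0.52, adjusted p = 0.00461), a call that was lost without OCI-AML3 combination day 3 library 3 (log2 value 1.58). Mitochondrially encoded protein genes moved apart: 13 of 13 had a smaller change in NOMO1, and the mitochondrial share of counts in OCI-AML3 was 10.8% to 14.9% at day 6 and 5.97% to 6.30% at day 3.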

How the data were processed

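RNA was measured by polyA-selected, unstranded paired-end sequencing. The authors deposited raw gene counts for 58870 genes, and the submitters' processing notes name FastQC 0.11.9, MultiQC 1.14, STAR 2.11a, Subread 2.0.6 with featureCounts, DESeq2 1.44.0 and hg38. The counts were used as deposited. Of the table's columns, 3 that match no sample label were not used, and 1 gene had an empty cell outside NOMO1. Without strand, reads of overlapping and antisense genes cannot be told apart.

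The 21 NOMO1 libraries were fitted as 7 group means, so that all groups share 1 estimate of the spread, with edgeR 4.0.16 (R 4.3.3, limma 3.58.1): filterByExpr, TMM scaling and robust quasi-likelihood tests, with Benjamini-Hochberg adjustment over all genes and a threshold of 0.05. The groups include selumetinib alone, whose titles give day 1 for library 1 and day 3 for libraries 2 and 3. Any difference between those days enters the shared spread as a difference between replicates. Day changes were compared as differences of differences in the same fit, and between lines in a fit of all 42 libraries in 14 groups. That fit also holds OCI-AML3 with DMSO and with VTP-50469 alone on both days, and with selumetinib alone. The day change and its difference from VTP-50469 alone were also fitted to simulated counts. Only a small set of genes was changed there, against 40.2% of genes called here, so the simulation does not test the scaling. Folds against a group with 0 counts take 3 counts, summed over its libraries, as the floor. Intervals and floors cover counting error only.

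Alternatives were other scalings, DESeq2 1.42.0, other filters, fitting only the groups compared, a replicate block and leaving out single libraries. Those left out were each library of the groups compared and library 1 of VTP-50469 day 3. No other library of a fit was left out singly. Genes were named as the 12 largest called changes each way at 5 CPM or more in 1 of the groups, the 5 largest differences each way, a followed list and up to 6 members of each list. The gene lists and named genes were chosen with earlier results of these data known. Promoters are from RefSeq GRCh38.p14, and gene positions and exon overlaps from GENCODE 29, a release other than the authors' annotation, which gave a position for 58596 of the genes. Some genes that the naming rule picks are not reported here.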

Additional observations from a re-analysis of the deposited data

Results flagged for a closer look

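The test of the difference itself called 17 named genes whose change from day 3 to day 6 in NOMO1 with the combination differed from that with VTP-50469 alone. The log2 difference was positive for GPNMB (3.29), DDIT4 (3.24), ZMYND15 (3.19), CCL24 (2.82), EMP1 (2.80), CD14 (1.69) and ETV5 (1.29) and negative for ATP9A (-2.91), CD163 (-2.37), TXNIP (-2.28), KCTD1 (-2.02), RAI14 (-1.99), LYZ (-0.71), CDK6 (-0.59), MYC (-0.63) and CSF1R (-1.76). For MEIS1 1 of the groups held too few counts for a fitted size, and the adjusted p value was 0.000255 (MEIS1) in edgeR's quasi-likelihood test. The genes were those with the largest differences in each direction together with a list followed across comparisons, of which 2 had larger and 7 smaller changes of 34. Without VTP-50469 day 3 library 1 the value was -3.59 for CD163 and 2.05 for DDIT4, and the calls for both and for ZMYND15 were lost without several other single libraries. ATP9A had the lowest value, while its own day change with the combination was not called (log2 0.31).

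The test of the difference itself called 36 named genes whose change from day 3 to day 6 in NOMO1 with the combination differed from that in DMSO, and 35 of them are given here. The log2 difference was positive for CADM1 (9.08), C1QA (8.20), CCND1 (0.77), KMT2A (1.35), DUSP4 (5.11), CDKN1A (1.40), CD36 (4.32), PHLDA1 (2.78), DUSP6 (2.57), MCL1 (0.26), FOS (3.55), CD14 (7.59), CSF1R (1.27), ETV5 (2.63) and TXNIP (0.95) and negative for PTK7 (-6.37), HOXA7 (-6.13), KIF26B (-5.74), HOXA9 (-0.72), MEF2C (-0.83), LYZ (-0.55), CDK6 (-0.95), COL1A1 (-0.79), FLT3 (-2.30), MYC (-1.93), PBX3 (-0.64), ITGAM (-0.59), BCL2 (-1.88), ETV4 (-1.57) and NRAS (-0.51). For GFRA2, MMP12, CLEC4E, MEIS1 and VAT1L 1 of the groups held too few counts for a fitted size, and the adjusted p values were 1.40e-07 (GFRA2), 1.09e-05 (MMP12), 0.00021 (CLEC4E), 2.22e-10 (MEIS1) and 2.42e-07 (VAT1L) in edgeR's quasi-likelihood test. The fitted sizes for CADM1 and HOXA7 are uncertain, since the lowest of the groups held 4 counts for each gene. Of the 34 followed genes 13 had larger and 14 smaller changes than in DMSO. The value for HOXA7 was -9.70 without combination day 6 library 1, which leaves no count in that group, so this value depends on the prior count. CLEC4E lost its call without DMSO day 3 library 3. The call for MEF2C was lost without combination day 6 libraries 1 or 3, combination day 3 library 2, DMSO day 6 library 2 or DMSO day 3 libraries 1 or 3 (log2 values -0.88 to -0.74). With scaling by library totals CCND1 was not called (0.33, adjusted p = 0.0611, edgeR) and MCL1 was at -0.19; the MCL1 call was also lost without any 1 of the 12 libraries compared (log2 values 0.18 to 0.24).

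The test of the difference itself called 27 named genes whose change from day 3 to day 6 in NOMO1 with the combination differed from that in OCI-AML3 with the same combination. The log2 difference was positive for GPNMB (10.14), KMT2A (1.58), DUSP4 (4.73), CDKN1A (1.24), CD36 (4.59), PHLDA1 (2.05), DUSP6 (1.96), MCL1 (0.60), FOS (1.69), CD163 (4.43), CSF1R (2.96), ETV5 (1.99) and TXNIP (1.58) and negative for HOXA9 (-1.33), LYZ (-1.55), MEN1 (-0.54), MYC (-2.34) and BCL2 (-0.71). For C1QA, HAVCR2, CD300E, VSIG4, MEIS1, SMPDL3B, ZBTB7C, ADRA2C and TFEC 1 of the groups held too few counts for a fitted size, and the adjusted p values were 0.0355 (C1QA), 2.76e-05 (HAVCR2), 9.23e-05 (CD300E), 1.07e-05 (VSIG4), 1.09e-11 (MEIS1), 4.92e-05 (SMPDL3B), 0.00031 (ZBTB7C), 0.00127 (ADRA2C) and 0.00269 (TFEC) in edgeR's quasi-likelihood test. GPNMB had only 4 counts at day 6 and 36 at day 3 in OCI-AML3, so its fitted size is uncertain. Of the 34 followed genes 12 had larger and 6 smaller changes in NOMO1. Calls were lost without 1 OCI-AML3 library for C1QA (day 6 library 2 or day 3 library 1), HAVCR2 and CD300E (day 3 library 2), DUSP6 (day 3 library 3), SMPDL3B, ZBTB7C and ADRA2C (day 6 library 3) and TFEC (day 6 library 2).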

How the results depend on the processing

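Of the 354 named genes called between the days, 318 kept their call under every alternative that tested them and 36 lost it under at least 1. Alternatives that left a gene out, such as the removal of mitochondrial genes, do not count for that gene. For the differences, 12 of 17 named genes kept it against VTP-50469 alone, 32 of 36 against DMSO and 19 of 27 against OCI-AML3. The sign turned for ATP9A (-0.040 without combination day 6 library 2, with values up to 0.75 without library 1), MEF2C (0.035 without combination day 3 library 2, with values down to -0.22 without library 3) and the MCL1 difference from DMSO (-0.19 with scaling by library totals); the cause was not tested. With a 2-fold minimum added, 958 genes were higher and 1002 lower. Against VTP-50469 alone, 210 genes had larger changes when only the groups compared were fitted and 498 had smaller changes in DESeq2, and leaving out 1 library at a time gave 165 to 840 larger and 187 to 914 smaller. Against DMSO, scaling by library totals gave 1753 larger and 6942 smaller.

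Same-numbered day 6 and day 3 libraries had correlations of -0.012, 0.029 and 0.008 in their deviations from the group means. Differently numbered ones had values from -0.046 to 0.039. The range over 63 NOMO1 pairs was -0.0753 to 0.0482, but it is drawn from the same libraries and is no separate reference. With 3 libraries a group, these values cannot show whether the replicate number marks shared cultures. With the number as a replicate block, 3447 genes were higher and 3128 lower at day 6 than at day 3. Genes with few counts, such as LIF, MMP1, HOXA6 and NOP2, lost their calls when single libraries were left out.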
